A study of Mus musculus with 3 samples.

Results

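The replication-dependent histone genes of mouse carry symbols that begin with Hist1h, Hist2h, Hist3h or Hist4h. The deposited count table held 66 gene IDs with such a symbol among 28692 gene IDs in all, and the 60 with at least 50 UMIs (unique molecular identifiers, each counted as 1 captured transcript) over all cells are described here. They comprised 5 genes of the linker histone H1, 17 of H2A, 13 of H2B, 12 of H3 and 13 of H4. The rule used no comparison between cells. The lowest member was Hist1h2ah with 105 UMIs, and the 6 genes left out were Hist1h1t with 18 UMIs, Hist2h2aa2 with 8, Hist1h2bq with 6, Hist1h2br with 2, Hist1h2aa with 1 and Hist1h2ba with 0.

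Core histones H2A, H2B, H3 and H4 form the octamer around which DNA is wrapped, and H1 binds the linker DNA where it enters and leaves that particle. Most replication-dependent histone genes lie in clusters, lack introns, and give transcripts that end in a stem-loop instead of a poly(A) tail. The stem-loop is bound by the protein Slbp, and the transcripts accumulate in S phase and are degraded when DNA synthesis ends. Some of these genes are also known to give polyadenylated transcripts, mostly in cells that are leaving the cycle. The assay used here starts from poly(A) tails, so how fully stem-loop transcripts were captured is unknown, and shares between genes below are shares of the captured UMIs and not of the transcripts in the cell.

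All cells were wild type. The libraries came from hindlimb bone marrow of C57BL/6 mice, enriched for CD117 on magnetic beads, sorted by flow cytometry and run on the 10x Genomics 3' v2 assay, with 1 male and 1 female mRNA library. The labels name the sorted population modified GMP (granulocyte-monocyte progenitor), and do not give the number of mice, their age or whether each library was 1 animal. Cells were taken in the authors' 17 clusters, and 4 classes were made from the cluster names: early (HSCP-1, HSCP-2 and Multi-Lin), Gran (Gran-1 and Gran-2), monocytic (MDP, cMoP and Mono) and Myelo (Myelo-1 to Myelo-4). No label explains the cluster names.

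The female library held 4336 cells and 91448433 UMIs, with a median of 21202 UMIs per cell, and the male library held 6796 cells and 124967351 UMIs, with a median of 18687. The libraries shared 45 cell barcodes, and leaving those cells out moved no count of called histone genes by over 1.5 times. Cells were summed per library, levels are UMI counts scaled to a sum of 1e+06 over all genes (CPM), and tests compared the sums over the 2 libraries. The library is a term in the fits. Such p-values therefore rest only on how differences between groups vary between these 2 libraries, with the spread shared among genes. An exact permutation test of 2 libraries cannot go below p = 0.5. In sums over cells, fewer cells with a transcript and less transcript per cell cannot be told apart. Late neutrophil markers (8 genes) summed to between 232887 and 258166 CPM in Myelo and between 10229 and 11087 CPM in Gran. Basophil and mast cell markers (5 genes) summed to between 1843 and 2377 CPM in early and between 129 and 138 CPM in Gran. Markers of granulocyte-monocyte progenitors (8 genes) were highest in Gran, between 40184 and 43109 CPM, and monocyte markers (6 genes) were highest in the monocytic class, between 1584 and 1628 CPM.

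RefSeq promoter windows on GRCm38.p6 (mm10) were found for 53 of the 60 genes. The 150 bases before the start are printed for all 5 H1 genes, because single H1 genes differed in direction in the comparisons that follow, and for 1 H2A gene that carries an octamer. Letters are 5′ to 3′ on the gene's strand. Capitals mark every match, on either strand, of 4 motifs. The first is CCAAT, which reads ATTGG on the other strand. The second is TATAAA, whose other strand reads TTTATA. The octamer is ATTTGCAT, and reads ATGCAAAT on the other strand. The H1 box is AAACACA, and reads TGTGTTT on the other strand. The windows are chr13:23763518-23763667 (plus strand), chr13:21780626-21780775 (minus), chr13:23738657-23738806 (plus), chr13:23554882-23555031 (plus), chr13:23622559-23622708 (minus) and chr13:23571221-23571370 (minus).
Hist1h1a: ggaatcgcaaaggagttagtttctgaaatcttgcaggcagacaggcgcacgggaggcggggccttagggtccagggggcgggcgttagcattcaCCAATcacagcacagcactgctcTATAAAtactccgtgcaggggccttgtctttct
Hist1h1b: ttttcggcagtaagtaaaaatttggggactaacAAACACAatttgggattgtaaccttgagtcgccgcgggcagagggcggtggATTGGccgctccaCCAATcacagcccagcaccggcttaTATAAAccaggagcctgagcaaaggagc
Hist1h1c: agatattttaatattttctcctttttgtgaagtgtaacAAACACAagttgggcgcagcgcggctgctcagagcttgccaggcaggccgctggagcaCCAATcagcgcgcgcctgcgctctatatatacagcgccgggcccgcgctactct
Hist1h1d: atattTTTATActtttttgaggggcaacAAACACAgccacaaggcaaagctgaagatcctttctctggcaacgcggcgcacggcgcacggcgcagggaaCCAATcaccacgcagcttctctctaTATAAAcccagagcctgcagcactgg
Hist1h1e: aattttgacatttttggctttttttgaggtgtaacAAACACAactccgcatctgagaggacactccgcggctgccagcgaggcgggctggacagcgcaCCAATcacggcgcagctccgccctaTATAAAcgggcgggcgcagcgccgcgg
Hist1h2ae: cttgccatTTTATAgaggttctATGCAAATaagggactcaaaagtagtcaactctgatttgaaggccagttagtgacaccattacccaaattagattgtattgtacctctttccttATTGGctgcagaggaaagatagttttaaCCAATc

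Over the 250 bases before the start, the CCAAT letters were found in 5 of 5 H1, 15 of 15 H2A, 11 of 11 H2B, 8 of 10 H3 and 3 of 12 H4 genes, against 34.5% of 27025 RefSeq genes. TATAAA was found in 27 of the 53 genes, against 12.97% of all. The octamer, an element described in H2B promoters, was found in 6 of 15 H2A and 4 of 11 H2B genes and in none of the windows of the other types, against 1.61% of all. The H1 box was found in Hist1h1b, Hist1h1c, Hist1h1d and Hist1h1e but not in Hist1h1a, and outside H1 only in Hist1h2ab, against 6.22% of all. The 4 motifs are different strings, although a TATAAA match can share its last A letters with the start of the H1 box. A match here is a match of letters and no measured site.

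Of the 60 genes, 48 belong to the Hist1 cluster, and the 46 with coordinates lie between chr13:21715711-23764412 and held, with the other 2, 88.6% of the 204736 histone UMIs. The 9 Hist2 genes at chr3:96219885-96270192 held 7.47%, the 2 Hist3 genes at chr11:58948911-58955192 held 1.67%, and Hist4h4 at chr6:136803993-136804431 held 2.22%. Of the 58 genes with coordinates, 54 span between 375 and 911 bases. The other 4 are H2B genes with longer models, Hist1h2be (37455 bases), Hist1h2bp (14079), Hist1h2bc (8282) and Hist2h2be (2667). Many of these genes are near-identical in their coding sequence. The assignment of reads that fit several copies was not given in the sources used here, so the split of UMIs among close paralogs is uncertain.

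A few genes held most of the UMIs of each type. H2A genes held 45.9% of the histone UMIs, H4 16.7%, H1 15.9%, H2B 14.4% and H3 7.06%. Hist1h2ap alone held 66959 UMIs, which is 32.7% of all and 71.3% of H2A, and Hist1h1c (16695 UMIs) held 51.3% of H1. Hist1h2bc (14802 UMIs) held 50.2% of H2B and Hist1h4i (16089 UMIs) 46.9% of H4. H3 had no such leader, since its highest gene, Hist1h3e, held 1858 UMIs or 12.9%.

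The histone genes summed to 1069 CPM in the female and 856 CPM in the male library, and most of that gap was Hist1h2ap. It stood at 410 CPM in the female and 236 CPM in the male library, a ratio of 1.74, while the other 47 members with at least 500 UMIs had ratios from 0.714 (Hist4h4) to 1.35 (Hist1h2af) with a median of 1.05. Over all 9512 genes with at least 500 UMIs, 33 (0.347%) had a higher ratio. Hist1h2ap was higher in the female library in 15 of 17 clusters, by 1.30 times in Myelo-3 to 2.19 times in cMoP among the 14 clusters other than HSCP-1, DC and Myelo-4. With 1 library of each sex, sex and library cannot be told apart, and no test was made.

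Summed over all 60 genes, the clusters differed widely. Meg was highest at 1822 ± 593 CPM (SD, n = 2 libraries), followed by Eryth (1448 ± 75.9), HSCP-2 (1357 ± 144), Multi-Lin (1305 ± 188) and Myelo-2 (1289 ± 266). Neighbours in this order differed by less than their spread. Gran-1 (742 ± 101) and Gran-2 (734 ± 81.8) were low in both libraries, and Myelo-4 was lowest at 365 ± 126 CPM. Without Hist1h2ap the 2 libraries lay closer together in most clusters, for example at 765 and 785 CPM in Multi-Lin and at 522 and 494 CPM in Gran-1. They lay further apart in Eryth (SD 80.4 against 75.9 CPM), Myelo-3 (47.0 against 10.9) and Myelo-4 (135 against 126). Eryth (41 and 43 cells), cMoP (39 and 97), Myelo-4 (31 and 28), DC (11 and 22) and HSCP-1 (14 and 10) rest on few cells.

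**Figure D1:**
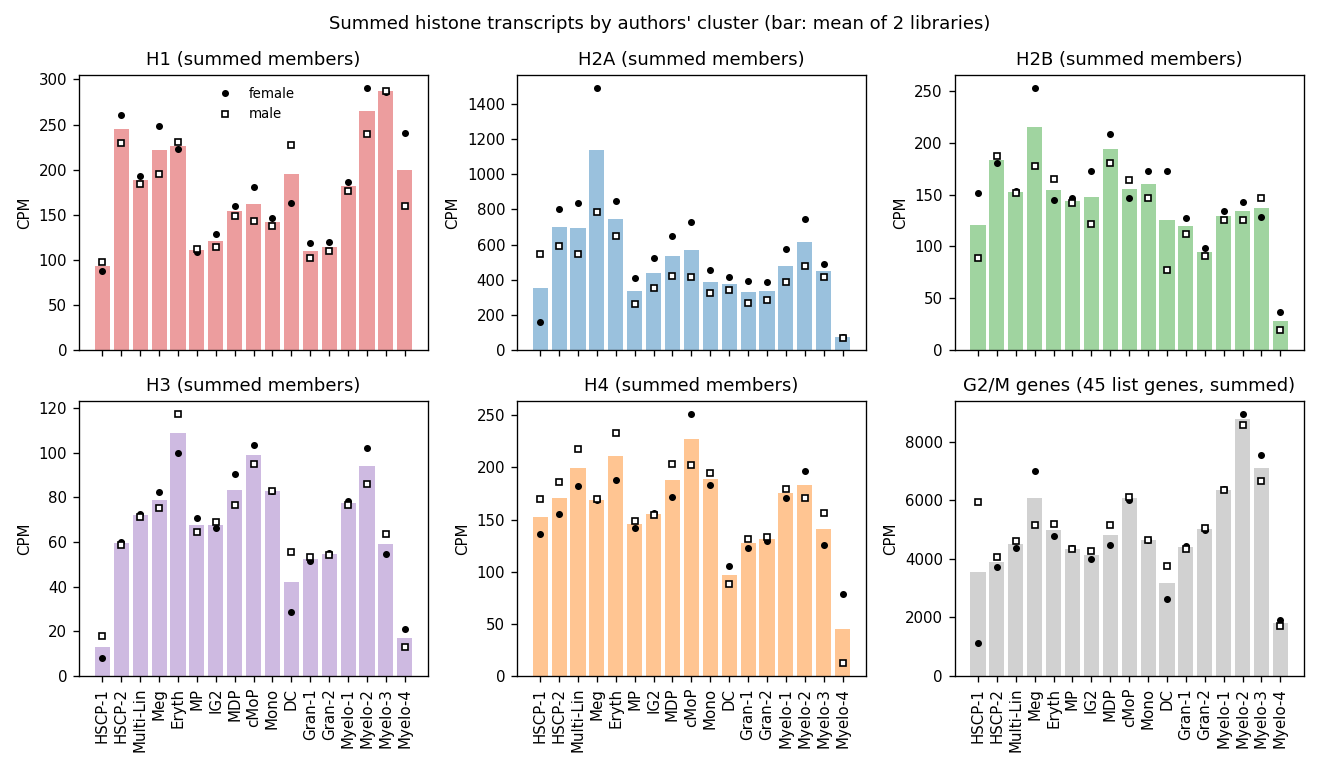
Summed CPM (vertical axis) of each histone type, and of 45 G2/M genes for comparison, in the authors' 17 clusters (horizontal axis); filled circles are the female library, open squares the male library and bars their mean. H2A is highest in Meg (1490 and 784 CPM), while H1 stays at 240 and 160 CPM in Myelo-4, where H2A (78.3 and 70.6 CPM), H2B and H4 have their lowest means; the lowest H3 mean is in HSCP-1.

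The types did not move together along the Myelo clusters. The ratio of H1 to core histone UMIs was 0.18 ± 0.01 in Gran-1, 0.21 ± 0.03 in Myelo-1, 0.26 ± 0.02 in Myelo-2, 0.36 ± 0.01 in Myelo-3 and 1.26 ± 0.19 in Myelo-4 (SD, n = 2 libraries). In the other clusters of at least 40 cells per library it lay between 0.14 in Meg and 0.22 in HSCP-2. Myelo-4 itself is under that bound, and its ratio rests on 71 H1 UMIs among 130 histone UMIs. Of the other clusters under the bound, DC gave 0.23 and 0.40 (female and male), HSCP-1 0.19 and 0.12, and cMoP 0.15 and 0.16. Both libraries gave the same order from Gran-1 to Myelo-4, and the 2 libraries of Myelo-3 (0.36 and 0.37) lay above both of Myelo-2 (0.25 and 0.28). Hist1h2ap weighs heavily in this ratio. Without it the ratio was 0.28 ± 0.02 in Gran-1, 0.34 ± 0.00412 in Myelo-1, 0.46 ± 0.01 in Myelo-2, 0.61 ± 0.06 in Myelo-3 and 1.68 ± 0.57 in Myelo-4, in the same order in both libraries. In the other clusters of at least 40 cells per library it then ran from 0.24 in MP to 0.42 ± 0.05 in HSCP-2, whose libraries (0.46 and 0.39) overlapped with those of Myelo-2 (0.47 and 0.45). DC, under that bound, then gave 0.35 and 0.64, where Myelo-3 gave 0.64 and 0.57 (female and male). H1 summed to 286 and 288 CPM in Myelo-3 and to 240 and 160 CPM in Myelo-4, whereas H2A stood at 489 and 414 CPM in Myelo-3 and at 78.3 and 70.6 CPM in Myelo-4.

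Single genes reached their highest level in different clusters. Among the 48 genes with at least 500 UMIs and the 13 clusters with at least 40 cells in each library, 18 were highest on average in Eryth, 9 in Myelo-2, 7 in Meg, 4 in MDP, 3 in Mono, 3 in Myelo-3, 2 in HSCP-2 and 1 each in Multi-Lin and Myelo-1. The same cluster was highest in both libraries for 7 of the 18 Eryth genes, for 4 of the 9 Myelo-2 genes and for 1 of the 7 Meg genes, so for most genes the top cluster is not settled by these libraries. The 3 genes highest in Myelo-3 were the linker histones Hist1h1c, Hist1h1d and Hist1h1e, of which only Hist1h1e was highest there in both libraries. None of the 48 genes was highest in Gran-1, Gran-2, MP or IG2. HSCP-2 was lowest for 10 genes, Gran-1 for 9, and Gran-2 and MP for 8 each. Both libraries had the same lowest cluster for 6 of the 10 HSCP-2 genes and 2 of the 9 Gran-1 genes. That held for 1 gene each of Gran-2 and MP.

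Hist1h1c, which encodes a linker histone, was at 71.8 and 55.3 CPM in Gran-1 (female and male), 91.9 and 79.2 in Myelo-1, 154 and 127 in Myelo-2, 156 and 152 in Myelo-3 and 146 and 115 in Myelo-4. Outside Myelo it was also high in HSCP-2, at 158 and 126 CPM. Hist1h1e, another H1 gene, was at 15.9 and 14.8 CPM in Gran-1, 57.8 and 56.8 in Myelo-3 and 83.6 and 38.5 in Myelo-4. Both genes were lower in Gran-1 than in any Myelo cluster in both libraries. Hist1h2bc stood at 120 and 113 CPM in HSCP-2, at 37.7 and 34.5 in Gran-2 and at 53.4 and 69.4 in Myelo-3, and at 155 and 98.3 in Meg.

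**Figure D2:**
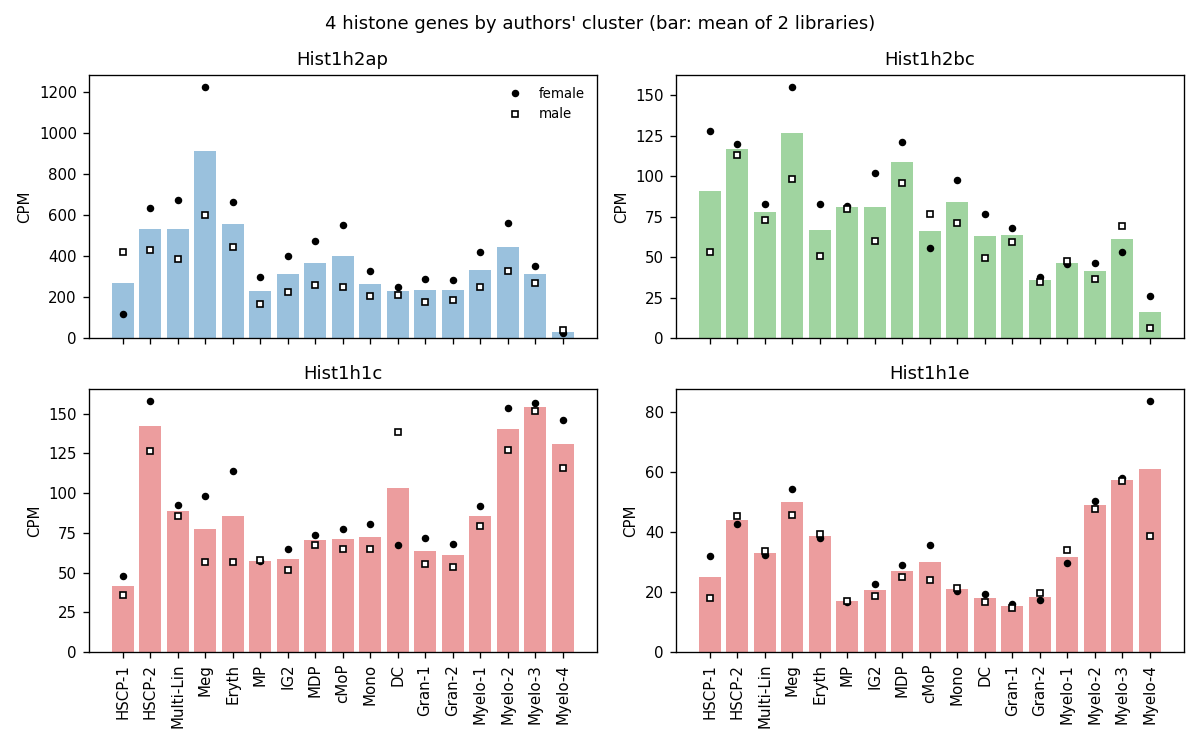
CPM (vertical axis) of Hist1h2ap, Hist1h2bc, Hist1h1c and Hist1h1e in the 17 clusters (horizontal axis); filled circles are the female library, open squares the male library and bars their mean. Hist1h2ap reaches 26.1 and 38.5 CPM in Myelo-4, its lowest cluster, where Hist1h1c is at 146 and 115 CPM.

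In Gran cells, 23 of the 60 histone genes were lower than in early cells and 7 were higher, by edgeR's quasi-likelihood test with Benjamini-Hochberg adjustment over all genes (adjusted p under 0.05). Over all genes tested, 32% were lower and 31.5% higher. The median log2 fold change was -0.20 for the histone genes and -0.01 for all genes. All 5 H1 genes fell, as did 8 of 17 H2A, 4 of 13 H2B, 2 of 12 H3 and 4 of 13 H4 genes. The falling shares of H2B and H4 (30.8% each) are near the 32% of all genes. That of H3 (16.7%) is below it, and as many H3 genes rose. Fold changes are scaled by TMM (trimmed mean of M-values), which is meant to set the bulk of genes to no change, while CPM are divided by the library total. On plain CPM the median of all genes lay 0.293 lower in this comparison and 0.479 lower between Myelo and Gran on the log2 scale, so the signs of Hist2h2aa1, Slbp and H2afz in Gran against early turned with the scaling. With plain CPM as the scaling, 36 members were lower and 0 higher. The median log2 fold change was then -0.49 for the members and -0.31 for all genes. The shares of all genes given above are from TMM and cannot be set beside this count.

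Hist1h2ap accounted for the largest drop in level. It was at 290 and 179 CPM in Gran and at 663 and 394 CPM in early (female and male), a log2 fold change of -0.87 (SE 0.05; edgeR's quasi-likelihood test, adjusted p = 2.7e-11). The highest Gran value lay below the lowest early value. The largest relative fall was that of the H2B gene Hist3h2ba, at 0.25 and 0.24 CPM in Gran and 2.85 and 5.004 CPM in early (log2 fold change -3.77, SE 0.34, edgeR adjusted p = 2.7e-08). The H2A gene Hist3h2a followed with 9.07 and 9.41 against 22.6 and 27.0 CPM (-1.14, SE 0.09), and Hist2h4, an H4 gene, with 5.81 and 7.51 against 13.6 and 22.0 CPM (-1.13, SE 0.11). For each of these genes the values of the 2 classes did not overlap.

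Among H1 genes the fall was largest for Hist1h1a (5.50 and 4.89 CPM in Gran, 13.7 and 11.01 in early, log2 fold change -0.95) and Hist1h1e (16.3 and 16.0 against 33.8 and 35.1 CPM, -0.81). It was smaller for Hist1h1c (70.8 and 54.9 against 102 and 90.7 CPM, -0.34) and for the H2B gene Hist1h2bc (60.03 and 53.2 against 89.4 and 78.2 CPM, -0.27). The 7 higher genes were Hist1h2ao, Hist1h4n, Hist1h2bg, Hist1h3c, Hist1h2bk, Hist1h3d and Hist1h2ag, with log2 fold changes from 0.31 to 0.68. Their CPM were close in both classes, as for Hist1h2ag at 13.1 and 10.98 in Gran and 13.05 and 10.8 in early, and DESeq2 called 0 members higher. A fit over the 17 clusters with equal weight called 5 lower genes, and 18 with HSCP-1 left out of the early class. In the first of these fits Hist1h1b (0.05) and Hist1h1c (0.03) turned upward. Markers of other lineages moved with this comparison. Besides the basophil and mast cell markers given above, erythroid markers (7 genes) summed to between 356 and 371 CPM in early and between 23.7 and 27.4 CPM in Gran, and megakaryocyte markers (5 genes) to between 79.3 and 93.5 CPM and between 12.4 and 19.8 CPM. Their part in the result was not tested.

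**Figure D3:**
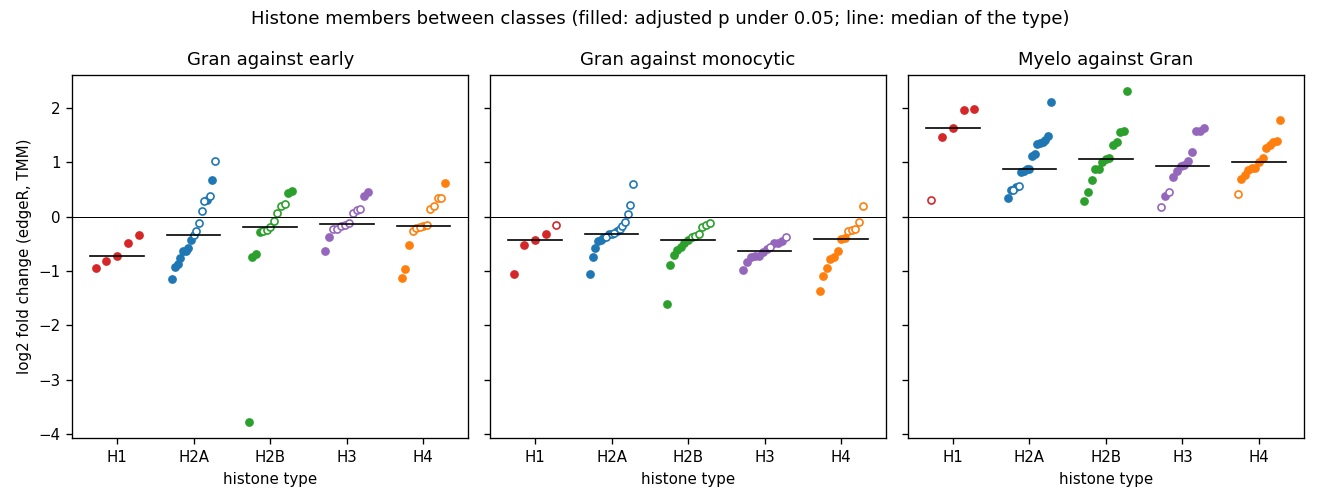
log2 fold change (vertical axis, TMM scaling) of the 60 histone genes by type (horizontal axis) in the comparisons between classes; filled points have an edgeR adjusted p under 0.05 and lines are the median of the type. Between Myelo and Gran every point lies above 0 with this scaling (on plain CPM some, such as Hist1h2bc, lie below), with the H1 median at 1.64, while between Gran and the monocytic class 37 filled points lie below 0.

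Gran cells were also lower than monocytic cells in 37 of 60 histone genes and higher in 0, by edgeR's quasi-likelihood test with Benjamini-Hochberg adjustment. Over all genes 20.7% were lower and 20.9% higher, and the median log2 fold change was -0.42 for the histone genes. At an unadjusted p under 0.05, edgeR again found 0 higher members and 40 lower, and DESeq2 found 0 higher and 23 lower after adjustment. By type the lower genes were 4 of 5 H1, 8 of 17 H2A, 7 of 13 H2B, 10 of 12 H3 and 8 of 13 H4. Thinning every cell to 4000 UMIs left 20 lower genes.

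Hist2h4 was at 5.81 and 7.51 CPM in Gran and 15.9 and 19.7 CPM in monocytic cells (log2 fold change -1.36, SE 0.11, edgeR adjusted p = 2.1e-08), and among clusters it was highest in cMoP (41.7 and 34.8 CPM). The H4 gene Hist1h4j was at 2.24 and 2.05 against 4.72 and 4.74 CPM (-1.10, SE 0.20), and Hist3h2a at 9.07 and 9.41 against 19.8 and 19.9 CPM (-1.05, SE 0.09). Neither gene overlapped between the classes in any library. Hist3h2ba had the largest fitted change (-1.61), but it rests on 0.25 and 0.24 against 0.34 and 1.12 CPM. Hist1h1c missed the threshold, at 70.8 and 54.9 against 79.4 and 65.0 CPM (-0.15, SE 0.06, edgeR adjusted p = 0.0509), and its classes overlapped. Hist1h2bc fell (60.03 and 53.2 against 99.2 and 75.5 CPM, -0.56, SE 0.06).

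In Myelo cells 54 of the 60 histone genes were higher than in Gran cells and 0 lower, by edgeR's quasi-likelihood test with Benjamini-Hochberg adjustment. Of all genes tested, 32.5% were higher and 32.2% lower, and the median log2 fold change was 1.02 for the histone genes and -0.01 for all genes. The median was largest for H1 (1.64; 4 of 5 genes rose), against 1.07 for H2B (13 of 13), 1.01 for H4 (12 of 13), 0.94 for H3 (10 of 12) and 0.87 for H2A (15 of 17). Lower members numbered 0 at an unadjusted p under 0.05 too and 0 by DESeq2. On plain CPM 42 histone genes were higher and 1 was lower, with a median log2 fold change of 0.54 for the members and -0.49 for all genes. The shares of all genes given above are from TMM.

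Hist1h1e was at 46.1 and 44.4 CPM in Myelo and 16.3 and 16.0 CPM in Gran (log2 fold change 1.97, SE 0.07, edgeR adjusted p = 5.6e-14). Hist1h1d was at 22.5 and 21.1 against 7.98 and 7.32 CPM (1.99, SE 0.10), and Hist1h1b at 47.1 and 42.5 against 18.4 and 21.2 CPM (1.64, SE 0.09). Hist1h1c was at 134 and 114 against 70.8 and 54.9 CPM (1.47, SE 0.06). In these 4 genes both Myelo libraries lay above both Gran libraries, whereas the fifth H1 gene, Hist1h1a, was at 4.60 and 4.54 against 5.50 and 4.89 CPM and was not called (0.30, edgeR adjusted p = 0.077). Among core genes the H2A gene Hist1h2an stood at 10.0 and 7.88 against 2.55 and 3.04 CPM (2.12, SE 0.16). Hist1h2ap stood at 448 and 277 against 290 and 179 CPM (1.12, SE 0.05), and its classes overlapped, although Myelo was higher within each library.

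Hist1h2bc (48.0 and 50.2 CPM in Myelo, 60.03 and 53.2 in Gran), Hist1h3e and Hist3h2a were called higher with TMM but were lower on plain CPM, with a log2 fold change of -0.19 for Hist1h2bc. Their direction is therefore not settled here. A fit over the 17 clusters with equal weight called 8 higher genes, and 51 with Myelo-4 left out of the class. Median UMIs per cell were 12502 and 12043 in Myelo and 26494 and 21257 in Gran, and the late neutrophil markers given above moved with the comparison. Thinned to 4000 UMIs per cell, 43 members were higher, and the part of the markers in the result was not tested.

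Myelo-4 was compared with Gran-1 although it holds 59 cells and 130 histone UMIs. Of the 55 histone genes tested, 2 were higher and 2 lower by edgeR's quasi-likelihood test with Benjamini-Hochberg adjustment, where 8.28% of all genes were higher and 15.4% lower. The median log2 fold change was -6.18 for the histone genes and -1.13 for all genes, so TMM did not bring the bulk of genes to no change here. In simulated counts, 41.8% of genes changed by 2 on the log2 scale were called in this comparison. Hist1h1c stood at 146 and 115 CPM in Myelo-4 and 71.8 and 55.3 CPM in Gran-1 (log2 fold change 1.51, SE 0.30, edgeR adjusted p = 6.1e-05), and Hist1h1e at 83.6 and 38.5 against 15.9 and 14.8 CPM (2.50, SE 0.41, edgeR adjusted p = 2.0e-06). Hist1h2ap went the other way, at 26.1 and 38.5 against 291 and 177 CPM (-2.46, SE 0.48, edgeR adjusted p = 5.3e-05). None of the 3 overlapped between the clusters.

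Hist1h1b had 0 UMIs in Myelo-4 and 17.8 and 20.5 CPM in Gran-1 (edgeR adjusted p = 0.040). With a floor of 3 counts over both libraries, or 8.64 CPM, it was at least 2.25-fold lower. H1 genes gave 71 of the 130 UMIs of Myelo-4, with Hist1h1a and Hist1h1b at 0, and 35 of the 60 genes had no UMI there, which at this depth does not show that they are absent. On plain CPM 7 members were lower and 2 higher, with a median log2 fold change of -6.19 for the members and -1.55 for all genes.

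To describe the genes by cell cycle, cells were ranked within each library and cluster by the share of their UMIs in 40 S-phase genes, and separately in 45 G2/M genes, and the top 25% was compared with the bottom 25% (1056 female and 1655 male cells on each side, from 13 clusters). No histone gene is on either list. Of the ranked cells, 28.4% lay within 10 percent of a boundary for the S-phase list and 25.2% for the G2/M list, so the levels are ranges and not cell types. Each fit has 1 residual degree of freedom, so its p-values lean on the spread shared among genes.

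More histone genes were called in the G2/M ranking than in the S-phase ranking. In cells high for G2/M genes 55 of 60 were higher and 1 lower, against 21.7% and 20.9% of all genes, by edgeR's quasi-likelihood test with Benjamini-Hochberg adjustment, and the median log2 fold change was 1.13. In cells high for S-phase genes 29 were higher and 3 lower, against 25.1% and 22.3% of all genes, with a median of 0.31. The higher calls of the S-phase ranking numbered 10 with DESeq2 and 9 after thinning to 4000 UMIs, and those of the G2/M ranking 37 and 38. Median UMIs per cell were 26098.5 and 22546 in G2/M-high against 18741.5 and 16302 in G2/M-low cells, and G2/M genes fell in S-high cells (40 of 45); the part of depth and of the other list in these results was not tested. The difference between the 2 rankings itself was not tested.

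Across both rankings, 27 genes rose in each, 27 rose in the G2/M ranking alone by call, and Hist1h3a and Hist1h4a rose in the S-phase ranking alone by call. Hist1h4m was called in neither. Hist3h2a fell with S-phase genes and rose with G2/M genes, Hist1h1c fell with S-phase genes and was not called with G2/M genes, and Hist1h2bc fell in both. The last 3 are on the list of 6 genes known to give polyadenylated transcripts, with Hist1h2ac, Hist2h2be and Hist3h2ba. Of that list 1 gene rose with S-phase genes and 3 fell, which are the 3 just named, where 25.1% of all genes rose and 22.3% fell. With G2/M genes 4 rose and 1 fell, against 21.7% and 20.9% of all genes.

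**Figure D4:**
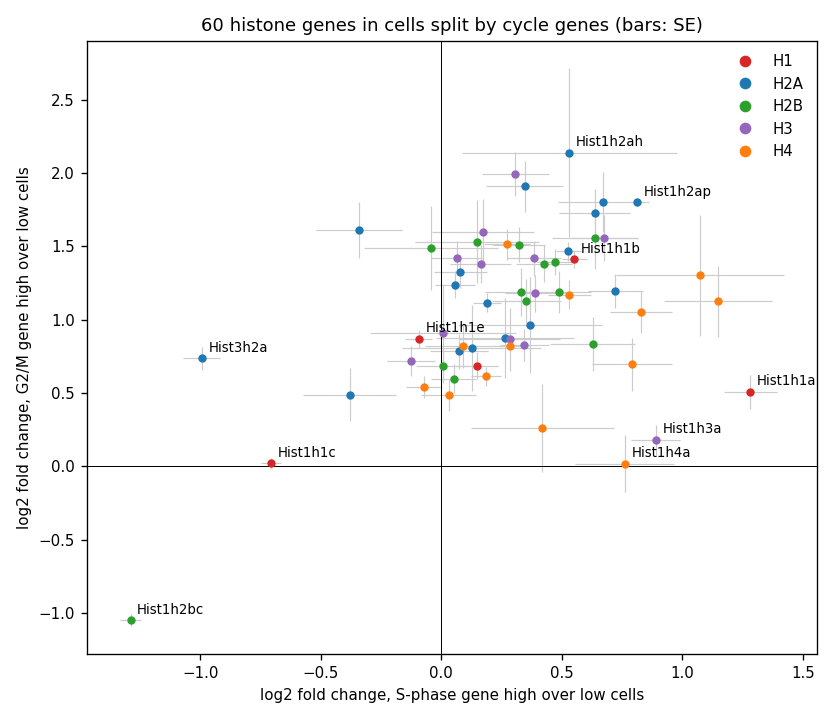
log2 fold change of the 60 histone genes in S-phase-gene high over low cells (horizontal axis) and in G2/M-gene high over low cells (vertical axis), coloured by type, with bars of 1 SE. Hist1h2bc lies alone below 0 on both axes by call (-1.29 and -1.05), and Hist1h1c lies left of 0 at the height of 0.02.

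Hist1h2bc stood at 41.2 and 38.0 CPM in S-high and 111 and 85.4 CPM in S-low cells (female and male; log2 fold change -1.29, SE 0.04), and at 53.2 and 38.0 CPM in G2/M-high against 88.6 and 90.3 CPM in G2/M-low cells (-1.05, SE 0.04). Both libraries of the high cells lay below both of the low cells in each ranking. Hist1h1c stood at 67.4 and 51.2 against 106 and 86.9 CPM in the S-phase ranking (-0.71, SE 0.04) and at 89.8 and 74.1 against 88.1 and 68.8 CPM in the G2/M ranking (0.02, SE 0.04, edgeR adjusted p = 0.71), where its values overlapped. Hist3h2a stood at 9.76 and 10.6 against 20.3 and 20.5 CPM (-0.99, SE 0.08) and at 20.3 and 20.0 against 11.8 and 11.6 CPM (0.74, SE 0.08). Each of these Hist3h2a values was separate between high and low cells in both libraries.

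The rest of H1 behaved otherwise. Hist1h1a had the largest rise of all members with S-phase genes, at 12.4 and 10.4 against 4.59 and 4.67 CPM (1.28, SE 0.11, edgeR adjusted p = 1.1e-20), followed by the H4 genes Hist1h4f (1.15) and Hist1h4k (1.07). Its rise with G2/M genes was 0.51, from 5.31 and 5.11 to 8.02 and 7.35 CPM. Hist1h1b rose in both rankings (34.7 and 33.6 against 22.1 and 24.2 CPM, 0.55; 38.5 and 41.0 against 14.1 and 14.8 CPM, 1.41). Hist1h1e and Hist1h1d were not called with S-phase genes and rose with G2/M genes (0.87 and 0.69). Within H1 the log2 fold change with S-phase genes thus ran from -0.71 for Hist1h1c to 1.28 for Hist1h1a, genes whose promoter letters both hold CCAAT, while only Hist1h1c of the pair holds the H1 box; no relation between letters and level was tested.

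Among core genes Hist1h2ap stood at 490 and 271 against 258 and 168 CPM with S-phase genes (0.81, SE 0.03, edgeR adjusted p = 2.2e-57) and at 582 and 333 against 159 and 93.9 CPM with G2/M genes (1.80, SE 0.03), where the groups did not overlap. The largest rises with G2/M genes were those of Hist1h2ah (2.14, on fewer than 1 CPM), Hist1h3g (1.99; 6.83 and 7.83 against 1.93 and 1.69 CPM) and Hist1h2ab (1.91; 6.42 and 5.10 against 1.55 and 1.38 CPM). Hist1h3a, an H3 gene, rose with S-phase genes (13.8 and 9.70 against 7.02 and 5.55 CPM, 0.89, SE 0.10) and was not called with G2/M genes (9.62 and 7.19 against 7.13 and 6.96 CPM, 0.18). Hist1h4i rose in both, by 0.28 and 0.82.

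When cells were divided at the median of both lists at once, 51 of the 60 genes were highest on average in cells high for both, 46 of them in both libraries. Another 7 were highest in cells high for G2/M genes only, 5 of them in both libraries. Hist1h1c (105 ± 12.1 CPM) and Hist1h2bc (146 ± 8.76 CPM) were highest in cells low for both lists, in both libraries. In cells high for both they stood at 70.8 ± 7.91 and 37.0 ± 3.71 CPM (SD, n = 2 libraries). H2A summed to 213 CPM in cells low for both, 300 in cells high for S-phase genes only, 468 in cells high for G2/M genes only and 798 in cells high for both. H3 followed the same order (35.2, 57.4, 75.0 and 89.8 CPM), as did H4 (109, 135, 164 and 213 CPM). H2B did not, with 183, 109, 145 and 131 CPM, of which Hist1h2bc alone gave 146, 52.4, 69.7 and 37.0 CPM. Each list was divided within clusters, but the groups made from both need not hold the same mix of clusters. Median UMIs per cell were 15330.5 and 13941.5 (female and male) in cells low for both and 21226 and 19543 in cells high for both. They were 22422.5 and 19290 in cells high for S-phase genes only, and 24878.5 and 21441 for G2/M genes only. The part of depth and cluster makeup was not tested.

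The classes were then compared at like levels of G2/M genes, with each cell thinned to 4000 UMIs and Hmgb2 left out of the list. The bins of a class hold different clusters. Of the 397 Myelo cells in the lowest bin, 70.5% were Myelo-3 and 12.8% Myelo-4, against 37.1% and 0% of the 1244 in the highest, and HSCP-2 gave 40.1% of the early cells in the lowest bin and 14.6% in the highest. Levels across the bins of a class therefore mix cluster and G2/M level. Hist1h1c in Gran stood at 74.8 and 50.9 CPM in cells with 0 to 4 G2/M UMIs and at 71.9 and 56.3 CPM in cells with 15 or more. In Myelo it stood at 156 and 120 CPM and at 163 and 128 CPM. In both classes the values at the ends of the scale overlapped, and in each of the 4 bins both Myelo libraries lay above both Gran libraries. Hist1h1e stood at 9.84 and 9.26 CPM in Gran and 62.9 and 42.4 CPM in Myelo in the lowest bin, and at 17.8 and 18.8 against 53.0 and 50.5 CPM in the highest. Hist1h2ap climbed with the bins in each class, from 87.9 ± 26.1 to 296 ± 97.4 CPM in Gran, from 59.3 ± 17.8 to 430 ± 155 in Myelo and from 204 ± 50.1 to 1067 ± 458 in early (SD, n = 2 libraries). In the lowest bin Hist1h2ap stood at 71.9 and 46.7 CPM in Myelo and at 106 and 69.4 CPM in Gran (female and male). The classes overlapped there, although Myelo was lower within each library. Hist1h2bc went down from 139 ± 6.41 to 54.8 ± 20.0 CPM in monocytic and from 80.9 ± 19.8 to 34.9 ± 10.4 CPM in Gran cells. In early cells it ran at 106, 108, 97.9 and 76.1 CPM over the bins, and in Myelo at 50.04, 68.2, 51.7 and 41.5 CPM, with no steady course in Myelo.

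Within single clusters, Hist1h1c stood at 70.3 and 55.03 CPM in Gran-1 and at 171 and 127 CPM in Myelo-3 in the lowest bin, and at 77.9 and 53.6 against 160 and 162 CPM in the highest. In each bin both Myelo-3 libraries lay above both Gran-1 libraries. Myelo-1 did not: its Hist1h1c was at 70.7 and 67.9 CPM in cells with 5 to 9 G2/M UMIs, where Gran-1 was at 74.3 and 58.2 CPM. Hist1h2ap was higher in the highest than in the lowest bin in both libraries of Gran-1 (381 and 239 against 104 and 55.03 CPM), Myelo-3 (474 and 336 against 53.7 and 53.5 CPM) and Multi-Lin (1240 and 675 against 230 and 176 CPM). Hist1h2bc went down within Mono, from 153 and 157 to 60.2 and 38.9 CPM, and within Gran-1, from 70.3 and 113 to 46.1 and 32.7 CPM. In HSCP-2 it was at 117 and 81.2 CPM in the lowest and at 129 and 208 CPM in the highest bin, and was not lower there. These are descriptions of the libraries with no test.

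**Figure D5:**
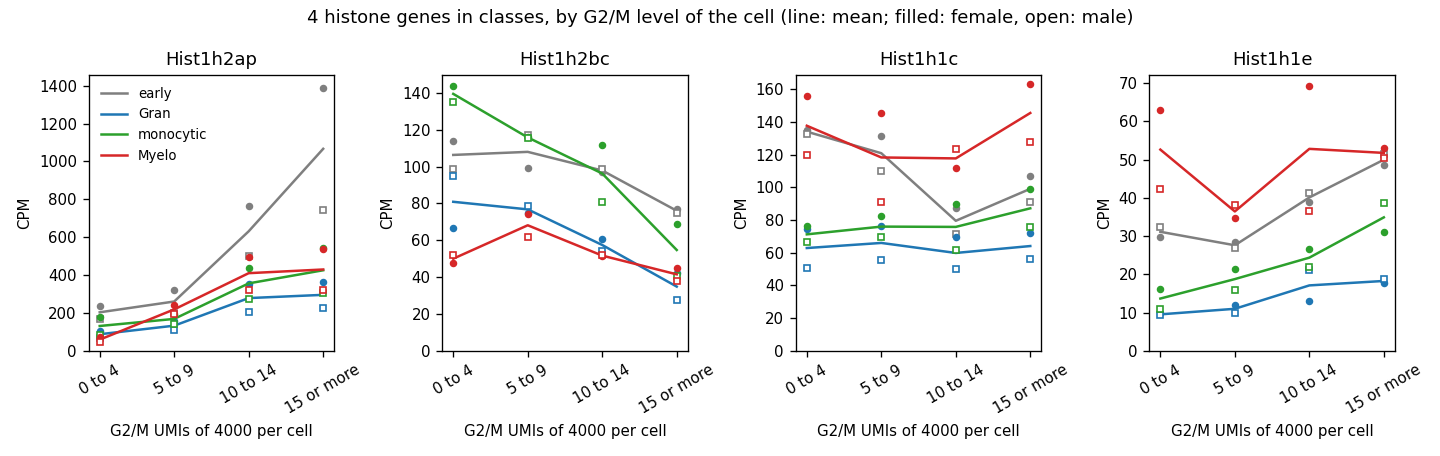
CPM (vertical axis) of Hist1h2ap, Hist1h2bc, Hist1h1c and Hist1h1e in the 4 classes, by the number of G2/M UMIs among 4000 per cell (horizontal axis); lines are the mean of 2 libraries, filled points the female and open points the male library. Hist1h1c runs level in Gran (means from 59.9 to 66.0 CPM) below Myelo (118 to 145 CPM), while the mean of Hist1h2ap climbs in every class; the clusters in a class differ between bins.

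Some histone transcripts were uneven between cells of 1 cluster, beyond the variance over mean of 1 that counting alone gives, and others were close to it. In Multi-Lin thinned to 4000 UMIs, Hist1h2ap had a mean of 2.38 and 1.44 UMIs per cell and a variance over mean of 3.91 and 2.50 (female and male), and the cells with the most UMIs, 10 percent of all, held 40.4% and 40.3% of its UMIs. In Gran-1 the variance over mean was 2.04 and 1.57 at means of 1.08 and 0.656. For Hist1h2bc it was 2.02 and 2.70 in Multi-Lin at means of 0.335 and 0.348, and 1.72 and 1.66 in Gran-1. Hist1h4i stayed close to 1, between 0.983 and 1.16 in both libraries of Multi-Lin, Gran-1 and Myelo-3. Hist1h1c stood at 1.74 and 1.44 in Multi-Lin, 1.36 and 1.14 in Gran-1 and 1.29 and 1.29 in Myelo-3. H2afz, a replication-independent variant counted at 9.04 and 9.33 UMIs per cell in Multi-Lin, gave 2.31 and 2.53 there. The variance over mean rises with the mean, so genes of unlike level are not ranked by it.

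Among genes that make, process and carry histones, more rose than fell in S-high cells. Of 18 tested histone chaperones and assembly factors 13 rose and 2 fell, and of 16 tested factors of histone transcription and 3′ end processing 8 rose and 1 fell, by edgeR's quasi-likelihood test with Benjamini-Hochberg adjustment. Over all genes tested, 25.1% rose and 22.3% fell in this ranking. Slbp, which binds the stem-loop, stood at 218 and 231 CPM in S-high against 91.0 and 96.3 CPM in S-low cells (log2 fold change 1.26, SE 0.03). Nasp, an H1 and H3 chaperone, stood at 133 and 147 against 65.1 and 75.1 CPM (1.00, SE 0.04). Chaf1b, of the replication-coupled assembly complex, stood at 55.7 and 54.0 against 14.95 and 14.4 CPM (1.91, SE 0.05). None of these values overlapped.

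In the G2/M ranking Slbp, Nasp and Chaf1b were lower in the high cells, where most histone genes were higher. Slbp stood at 116 and 128 CPM in G2/M-high against 157 and 167 in G2/M-low cells (-0.45, SE 0.03), Nasp at 77.4 and 88.6 against 104 and 118 (-0.47, SE 0.04) and Chaf1b at 18.2 and 17.7 against 41.7 and 42.0 (-1.27, SE 0.06). Among the 18 chaperones 4 rose and 6 fell, and among the 16 processing factors 4 rose and 3 fell. The chaperones that rose include Hjurp, which is also on the G2/M list that ranked the cells, so its rise was fixed in advance. The rising shares, 22.2% with Hjurp counted and 25%, are near the 21.7% of all genes that rose in this ranking (20.9% fell). Of the 11 replication-independent variants 7 rose and 1 fell with G2/M genes. With S-phase genes 5 rose and 4 fell, where 25.1% of all genes rose and 22.3% fell. H2afx, the variant phosphorylated at DNA breaks, stood at 446 and 438 against 143 and 133 CPM with G2/M genes (1.63, SE 0.03) and at 217 and 196 against 334 and 343 CPM with S-phase genes (-0.72, SE 0.03). H1f0, a linker histone of differentiated cells, fell with S-phase genes (26.8 and 25.3 against 36.4 and 33.4 CPM, -0.41), as Hist1h1c did.

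Between classes the variants followed the histone genes in part. H1f0 stood at 20.2 and 18.4 CPM in Gran, 65.2 and 62.6 in early (-1.44, SE 0.06) and 29.3 and 32.0 in Myelo (1.16 over Gran, SE 0.07). Among the 11 variants 3 rose and 7 fell in Gran against early, 0 rose and 6 fell in Gran against the monocytic class, and 7 rose and 3 fell in Myelo against Gran. Of all genes, 31.5% rose and 32% fell in the first comparison, 20.9% and 20.7% in the second and 32.5% and 32.2% in the third. The 27.3% of variants that rose in the first and the 27.3% that fell in the third are near these shares. The 0 rises of Gran against the monocytic class, from edgeR's quasi-likelihood test, stayed 0 at an unadjusted p under 0.05 and with DESeq2. H2afy, a macroH2A, was the variant that went down most in Myelo, at 331 and 470 against 916 and 1047 CPM (-0.82, SE 0.06). H3f3b, which encodes the replication-independent H3, stood at 1955 and 1898 against 1556 and 1496 CPM (0.82, SE 0.04).

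The processing and chaperone genes were mixed between classes. In Gran against early, 6 of 18 chaperones rose and 8 fell, and 5 of 16 processing factors rose and 2 fell. The rising shares (33.3% and 31.2%) are near the 31.5% of all genes that rose, while 32% of all genes fell. In Gran against the monocytic class 2 of 18 chaperones rose and 6 fell, and 1 of 16 processing factors rose and 2 fell, where 20.9% of all genes rose and 20.7% fell. In Myelo against Gran 5 of 18 chaperones rose and 9 fell, and 4 of 16 processing factors rose and 4 fell, where 32.5% of all genes rose and 32.2% fell. Slbp stood at 181 and 182 CPM in Myelo and 145 and 160 in Gran (0.74, SE 0.06), and Nasp at 53.4 and 63.8 against 106 and 117 CPM (-0.45, SE 0.05). In the same comparison 44 of 45 G2/M genes rose and none was lower by edgeR at an unadjusted p under 0.05 or by DESeq2, while of 40 S-phase genes 13 rose and 16 fell. All 6 histone genes known to give polyadenylated transcripts fell in Gran against early and rose in Myelo against Gran with TMM scaling, where Hist1h2bc and Hist3h2a turn on plain CPM, and 4 of the 6 fell in Gran against the monocytic class.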

How the data were processed

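Sequencing reached 689 M reads in the male and 676 M in the female library, per the labels. Reads were processed with Cell Ranger 2.1.0 on mm10, per the submitters' processing notes, while annotation, strand setting and the treatment of multi-mapped reads and doublets were not given in the sources used here. Files deposited by the authors hold raw UMI counts per gene ID and cell, and a cluster name for each cell. The pooled antibody library was not used here.

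Cells passed no further filter and no doublet caller was run. Counts were summed per library and class (8 sums), per library and cluster (34 sums) or per library and level of a cell cycle list (4 sums), with 3, 16 and 1 residual degrees of freedom. Sums were fitted over all genes with edgeR 4.0.16 in R 4.3.3 (TMM, filterByExpr, quasi-likelihood test, the library as a term), with Benjamini-Hochberg adjustment over all genes tested at 0.05. The SE is the log2 fold change over the root of F. Alternatives were DESeq2 1.42.0, plain CPM scaling, no filter, no library term, only the classes compared, a fit over clusters, 50% in place of 25% of cells, thinning to 4000 UMIs per cell, leaving out shared barcodes and leaving out each library. The Hmgb2, HSCP-1 and Myelo-4 alternatives and the values within single clusters by G2/M level were chosen after seeing the data. The fitting code was tested on simulated counts.

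Both libraries come from wild-type cells and each holds all classes, so the library number pairs the sums by design. Genes named are up to 5 of each type by CPM, Hist1h1c and Hist1h2bc, up to 3 called each way in each comparison, and members that break their type's direction; from the lists, Slbp, Nasp, H2afz, H2afx, H3f3b, H1f0 and up to 2 more of each list. Chaf1b, H2afy and some further members were named after their values were seen. The members and the lists were chosen with earlier results of these data known. Symbols and coordinates were matched to RefSeq tables of GRCm38.p6.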

Additional observations from a re-analysis of the deposited data

Results flagged for a closer look

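Among the called histone genes, 2 moved in opposite directions in the female and the male library on plain CPM. For Hist1h3d in Gran against early the log2 ratio was -0.074 in female and 0.198 in male cells. For Hist1h2ag in Myelo against Gran it was 0.0189 in female and -0.0047 in male cells. Neither difference between the libraries was tested, and both genes were called higher with TMM scaling.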

How the results depend on the processing

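Of the 94 counts of called histone genes recomputed under other settings, 78 stayed within 1.5 times the reported count. For Gran against early, the 7 higher became 0 with plain CPM, 0 with DESeq2 and 3 with thinned cells, and the 23 lower became 36 with plain CPM, 15 with thinned cells and 5 over the 17 clusters, where leaving out HSCP-1 gave 18. For Gran against the monocytic class, the 37 lower became 23 with DESeq2 and 20 with thinned cells. For Myelo against Gran, the 54 higher became 8 over the 17 clusters, or 51 without Myelo-4, and the 0 lower became 1 with plain CPM. For Myelo-4 against Gran-1, the 2 lower became 7 with plain CPM and 1 with DESeq2. For the S-phase ranking, the 29 higher became 10 with DESeq2 and 9 with thinned cells. Without the library as a block, the pairing of the sums was dropped, and 4 members were higher in Gran against early and 18 in the S-phase ranking; the block moved no other count by over 1.5 times. Of the 85 summed CPM (5 types in 17 clusters), 76 moved by more than 1 SD of the libraries without the type's top member, and the 85 then lay between 0.196 and 0.913 times the reported values. Thinning moved 25, of which 21 in the 13 clusters of at least 40 cells per library, where values lay between 0.778 and 1.15 times those reported. Members with 500 or more UMIs alone moved 15, with no value under 0.845 times.

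Of the named genes' fold changes recomputed, 2609 kept direction and side of the threshold, 193 lost and 49 gained a call, and 37 reversed. Another 28 could not be fitted over clusters because a cluster held no UMI. In Gran against early, the fit over the 17 clusters gave 0.0518 for Hist1h1b, 0.0277 for Hist1h1c, 0.10 for Hist1h4i, 0.10 for Hist1h4j, 0.30 for H2afx and 0.19 for Nap1l1, and without HSCP-1 0.0216 for Hist1h4i, 0.34 for Hist1h4j, 0.47 for Hist2h3c1 and 0.0348 for Nap1l1. Plain CPM gave -0.18 for Hist2h2aa1, -0.19 for Cpsf3, -0.00459 for H2afz, -0.11 for Slbp and -0.20 for Ssrp1, and thinning gave 0.00038 for Nap1l1. Single libraries, which carry plain CPM ratios, gave -0.0742 and 0.198 for Hist1h3d, -0.114 and -0.107 for Slbp and 0.00673 and -0.0149 for H2afz (female and male). In Myelo against Gran, plain CPM gave -0.19 for Hist1h2bc, -0.10 for Hist1h3e, -0.12 for Hist3h2a and -0.0199 for Cks2. The female library alone gave -0.32 for Hist1h2bc, -0.15 for Hist1h3e and -0.26 for Hist3h2a, and the male alone -0.084, -0.059 and -0.016 for these, with 0.0189 and -0.0047 for Hist1h2ag and 0.00677 and -0.0468 for Cks2 (female and male). The 17 clusters gave -0.0822 for Cks2 and -0.46 for Rrm2. DESeq2 gave 0.34 for H2afz in Myelo-4 against Gran-1. In the G2/M ranking plain CPM gave 0.0433 for H3f3a and thinning 0.0667 for Rrm2. The cause of the reversals was not tested beyond the scaling itself. Members under about 1 CPM and Myelo-4 are limited by depth.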
